A study of Homo sapiens with 10 samples.

Results

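Expression of 9 genes that encode enzymes of the pentose phosphate pathway and other makers of NADPH was followed in 2 pancreatic ductal adenocarcinoma cell lines. The genes were PGD, PGLS, TKT, TALDO1, RPIA, RPE, ME1, IDH1 and NNT. They were chosen by name for their function, with earlier results of these data known, and all 9 were present among the 20289 genes of the deposited table. PANC-1 is an epithelioid line from a primary pancreatic tumour, and CFPAC-1 is a ductal line from a metastasis in a patient with cystic fibrosis. PANC-1 was exposed for 24 h to 1 µM imidazole ketone erastin (IKE) in 4 libraries or to 0.1% DMSO, the solvent control, in 2 libraries. CFPAC-1 was exposed for 24 h to 10 µM IKE in 2 libraries or to 0.1% DMSO in 2 libraries. IKE is an erastin derivative that blocks system xc-, the cystine importer, and can trigger ferroptosis, a form of cell death in which iron drives the peroxidation of membrane lipids. Dead cells and debris were removed before RNA was taken, so surviving cells were measured, and a change within cells and a change in which cells remained cannot be told apart. No genetic change was introduced by the study, and each line received 1 dose only, so that line and dose cannot be told apart in comparisons of the responses.

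The pentose phosphate pathway branches from glycolysis at glucose 6-phosphate. Its oxidative arm yields NADPH and ends in ribulose 5-phosphate, and its non-oxidative arm interconverts sugar phosphates, supplying ribose for nucleotides or returning carbon to glycolysis. NADPH is also made by cytosolic malic enzyme and isocitrate dehydrogenase and, in mitochondria, by the transhydrogenase. It supplies electrons to glutathione reductase and thioredoxin reductase, and several of the genes are known targets of the oxidative stress factor NRF2.

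Expression was given as FPKM, fragments scaled to transcript length and library total, so levels of different genes can be set side by side. Between 11604 and 12248 genes reached 1 FPKM per library, and read depth is unknown. Mitochondrially encoded genes took 2.65% to 5.27% of summed FPKM, the most in PANC-1 IKE replicate 3. The median absolute difference between 2 replicates ran from 0.0891 to 0.147 on the log2 scale over 13077 tested genes, and the highest values were those of pairs with PANC-1 IKE replicate 2. All 5 epithelial markers (KRT7, KRT8, KRT18, KRT19 and EPCAM) reached 1 FPKM in every library, at unequal levels. KRT7 had 4.39 to 6.15 FPKM in PANC-1 and 271.36 to 330.41 FPKM in CFPAC-1, and EPCAM 8.58 to 11.06 and 151.91 to 157.93 FPKM. With DMSO, 3 of the 5 were lower and 1 was higher in PANC-1 than in CFPAC-1 (limma, adjusted p under 0.05). Of all tested genes, 35.2% were lower and 43.4% higher in that comparison. Of 11 markers of leukocytes, fibroblasts, endothelium, acinar and endocrine cells, COL1A1 reached 1 FPKM in every PANC-1 library, and CD14, COL1A1 and PECAM1 in every CFPAC-1 library. Their summed FPKM was 18.55 to 25.98 with IKE against 23.36 to 23.59 with DMSO in PANC-1, and 35.91 to 39.44 with IKE against 35.91 to 41.08 with DMSO in CFPAC-1. INS and GCG were listed at 0 in all 10 libraries, and the leukocyte marker PTPRC did not exceed 0.03 FPKM.

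With IKE, ME1 rose in both lines, and PGD and TKT rose in CFPAC-1. No member fell in either line. In PANC-1, 1 of 9 members rose, where 1.21% of all tested genes did, and 0 fell, where 1.17% did, so that 2.38% of all were called (limma, adjusted p under 0.05 over 13077 genes). In CFPAC-1, 3 of 9 members rose, where 0.864% of all tested genes did, and 0 fell, where 0.459% did, so that 1.32% of all were called. The PANC-1 count was 0 without either DMSO library and 2 without IKE replicate 2, and the CFPAC-1 count was 0 without DMSO replicate 2 and 1 without any other library of that line. At an unadjusted p under 0.05, 3 members were higher and 1 was lower in PANC-1, and 5 were higher and 0 lower in CFPAC-1. By their ranks, at least 2121 of the 13077 tested genes met this threshold in PANC-1 and at least 1732 in CFPAC-1, in either direction. The members' median log2 fold change was 0.08 in PANC-1, against -0.01 over all tested genes, and 0.23 in CFPAC-1, against 0 over all tested genes. Fold changes are on the log2(FPKM + 1) scale, which understates those of genes with low values. Summed over the 9 genes, FPKM was 533.6, 562.1, 510.4 and 507.1 in PANC-1 with IKE against 504.1 and 470.2 with DMSO, and 669.5 and 655.3 in CFPAC-1 with IKE against 548.6 and 547.7 with DMSO. The PANC-1 library at 562.1, IKE replicate 2, also had the highest FPKM total over all genes (472665). In this bulk RNA, a change in the share of cells that make a transcript and a change in transcript per cell cannot be told apart.

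**Figure D1:**
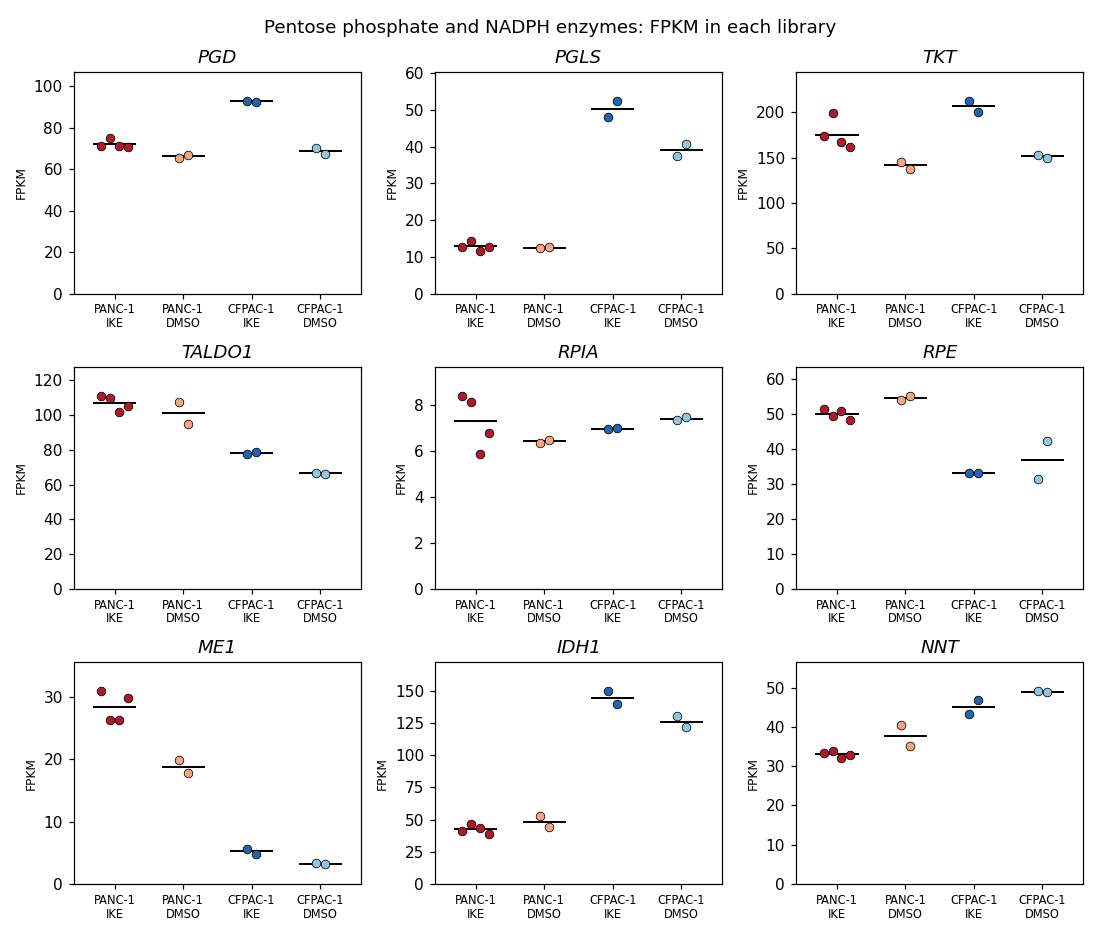
FPKM of each of the 9 genes (vertical axes, each from 0) in 4 groups of libraries (horizontal axis); points are single libraries and bars are group means, with 4 libraries in PANC-1 IKE and 2 in each other group. ME1 with IKE lay above DMSO in each line (26.24 to 30.89 against 17.78 to 19.80 FPKM in PANC-1), and PGD and TKT with IKE lay above DMSO most widely in CFPAC-1.

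The oxidative arm was represented by PGLS, the lactonase that opens 6-phosphogluconolactone, and PGD, the dehydrogenase that follows it and makes NADPH. PGD (ENSG00000142657) lies on the forward strand of chromosome 1 from 10398592 to 10420144 in GRCh38, as annotated in GENCODE 29. PGD stood at 92.93 and 92.29 FPKM in CFPAC-1 with IKE, against 70.39 and 67.38 FPKM with DMSO. The IKE libraries lay above both DMSO libraries, and PGD rose by 0.42 on the log2 scale (SE 0.06, limma adjusted p = 0.00451, ratio of mean FPKM 1.34). This call was lost without CFPAC-1 DMSO replicate 2, at a fold change of 0.39 (adjusted p = 0.0629). In PANC-1, PGD had 71.15, 75.14, 71.04 and 70.50 FPKM with IKE and 65.61 and 66.64 FPKM with DMSO. The groups did not overlap there either, but the difference of 0.12 did not pass the test (95% interval 0 to 0.23, limma adjusted p = 0.263).

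PGLS (ENSG00000130313; chromosome 19, forward strand, 17511629 to 17521288) overlaps a pair of non-coding genes on the opposite strand. The labels' protocols name digestion of the second cDNA strand, but the strand setting of the processing was not given in the sources used here. This makes the values of such overlapping genes uncertain. In CFPAC-1, PGLS had 48.14 and 52.49 FPKM with IKE and 37.36 and 40.82 FPKM with DMSO, a difference of 0.36 on the log2 scale that missed the threshold (95% interval 0.15 to 0.56, limma adjusted p = 0.109). In PANC-1 it had 12.71, 14.31, 11.70 and 12.76 FPKM with IKE and 12.46 and 12.68 FPKM with DMSO. The PANC-1 groups overlapped, at a difference of 0.03 (95% interval -0.15 to 0.21, limma adjusted p = 0.907).

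In the non-oxidative arm, TKT and TALDO1 encode transketolase and transaldolase, which move carbon units between sugar phosphates. TKT (ENSG00000163931; chromosome 3, reverse strand, 53224707 to 53256052) was the member with the highest mean in all 4 groups. It had 173.40, 198.92, 167.12 and 161.77 FPKM in PANC-1 with IKE and 145.52 and 137.47 FPKM with DMSO. Every PANC-1 IKE library was above both DMSO libraries, with replicate 2 the highest, and the difference of 0.30 did not pass the test (95% interval 0.13 to 0.47, limma adjusted p = 0.0696). It passed without PANC-1 IKE replicate 2 (0.24, adjusted p = 0.0375) and with IKE replicates 1 and 2 alone (0.39, adjusted p = 0.0498). In CFPAC-1, TKT stood at 212.46 and 200.45 FPKM with IKE and 153.11 and 149.26 FPKM with DMSO. TKT rose there by 0.45 on the log2 scale (SE 0.09, limma adjusted p = 0.0361, ratio of mean FPKM 1.37). The sign held in every alternative, but the call was lost on leaving out any single CFPAC-1 library, either PANC-1 DMSO library or PANC-1 IKE replicate 1 (from 0.0545 to 0.22 in adjusted p), with no low-value filter (adjusted p = 0.0664) and with no intensity trend (adjusted p = 0.069).

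TALDO1 (ENSG00000177156; chromosome 11, forward strand, 747329 to 765024) had 110.99, 109.92, 101.99 and 105.20 FPKM in PANC-1 with IKE and 107.53 and 95.08 FPKM with DMSO. These overlapped, at a difference of 0.08 (95% interval -0.06 to 0.22, limma adjusted p = 0.558). In CFPAC-1, TALDO1 had 77.32 and 78.79 FPKM with IKE and 66.57 and 66.33 FPKM with DMSO. The CFPAC-1 groups were apart and each pair was tight, yet the difference of 0.23 did not pass (95% interval 0.07 to 0.39, limma adjusted p = 0.173).

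RPIA and RPE turn ribulose 5-phosphate into ribose 5-phosphate and xylulose 5-phosphate, the first as an isomerase and the other as an epimerase. RPIA (ENSG00000153574; chromosome 2, forward strand, 88691644 to 88750935) had 8.39, 8.13, 5.86 and 6.78 FPKM in PANC-1 with IKE and 6.36 and 6.49 FPKM with DMSO. IKE replicates 1 and 2 lay above DMSO and replicate 3 below it (difference 0.15, 95% interval -0.12 to 0.41, limma adjusted p = 0.581). In CFPAC-1, RPIA had 6.94 and 7.00 FPKM with IKE and 7.35 and 7.46 FPKM with DMSO, at a difference of -0.08 (95% interval -0.38 to 0.23, limma adjusted p = 0.88).

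RPE (ENSG00000197713; chromosome 2, forward strand, 210002565 to 210022259) overlaps KANSL1L on the opposite strand and has a near-identical copy, RPEL1, at 0 to 0.17 FPKM, so that the split of reads is uncertain. RPE had 51.41, 49.28, 50.88 and 48.09 FPKM in PANC-1 with IKE and 53.95 and 55.06 FPKM with DMSO. All 4 IKE libraries were below both DMSO libraries, without passing the test (difference -0.12, 95% interval -0.33 to 0.08, limma adjusted p = 0.542). In CFPAC-1, RPE had 33.05 and 32.99 FPKM with IKE and 31.45 and 42.30 FPKM with DMSO. The DMSO replicates there were farther apart than the group means, and the sign of the difference (-0.14, limma adjusted p = 0.653) turned to 0.07 without DMSO replicate 2.

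ME1 encodes the cytosolic malic enzyme, which makes NADPH as it turns malate into pyruvate. It lies on the reverse strand of chromosome 6 (ENSG00000065833, 83210389 to 83431071), and the processed pseudogene AL391416.1 overlaps it on the opposite strand. ME1 stood at 30.89, 26.24, 26.34 and 29.87 FPKM in PANC-1 with IKE and 19.80 and 17.78 FPKM with DMSO. All 4 IKE libraries were above both DMSO libraries, and ME1 rose by 0.57 on the log2 scale (SE 0.09, limma adjusted p = 0.0124, ratio of mean FPKM 1.51). In CFPAC-1, at lower levels, ME1 had 5.68 and 4.89 FPKM with IKE and 3.33 and 3.16 FPKM with DMSO. It rose there by 0.56 on the log2 scale (SE 0.11, limma adjusted p = 0.0291, ratio of mean FPKM 1.63). The rise kept its sign in every alternative in both lines. Its call in PANC-1 was lost on leaving out PANC-1 DMSO replicate 1 (adjusted p = 0.0759) or replicate 2 (adjusted p = 0.121). In CFPAC-1 the call was lost on leaving out any single library of that line (from 0.0776 to 0.204 in adjusted p), with the lines fitted apart (adjusted p = 0.0722) and with PANC-1 IKE replicates 1 and 2 alone (adjusted p = 0.0554). Leaving out a library from a group of 2 leaves 1, which is then assumed to vary like the other groups.

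Sequence before the transcription starts was read from RefSeq windows of the 9 genes (GRCh38.p14; 11 windows, since IDH1 and NNT have 2 each). Each window runs from 250 bases before a start to 50 bases after it. They are shown for the genes that hold the core of the antioxidant response element (ARE), the motif bound by NRF2, because ME1, PGD, TKT and IDH1 are commonly listed among its targets. The core was searched as TGACNNNGC on both strands. It was found in 4 of the 11 windows and in 13.3% of all 35116 windows of this length. The longer form TGACTCAGC, which contains the AP-1 site TGACTCA, was found in 1 of the 11 windows, that of ME1, and in 0.561% of all. The ATF4 composite element, searched as TGATGNAAT on both strands, was found in 0 of the 11 windows and in 0.991% of all. Stretches around the matches are given 5′ to 3′ on the gene's own strand, with the match in capitals.
ME1, chr6:83431120-83431248, reverse strand: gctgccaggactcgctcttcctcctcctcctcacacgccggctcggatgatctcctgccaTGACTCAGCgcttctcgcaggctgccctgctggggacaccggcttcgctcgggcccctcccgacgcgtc
PGD, chr1:10398843-10398891, forward strand: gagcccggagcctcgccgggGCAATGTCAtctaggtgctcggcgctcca
IDH1, chr2:208255186-208255234, reverse strand: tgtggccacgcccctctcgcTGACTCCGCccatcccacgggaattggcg
RPE, chr2:210002467-210002515, forward strand: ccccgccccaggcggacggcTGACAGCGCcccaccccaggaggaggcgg
The matches begin 137 bases before the start in ME1, 201 bases before it in PGD, where the core reads on the opposite strand, 143 bases before it in IDH1 and 151 bases before it in RPE. A further match of the core in the ME1 window lies after the start and is not shown. No GENCODE 29 exon of the members, IDH1-AS1 or KANSL1L overlaps the stretches. Those of PGD and IDH1 lie within the annotated genes, in an intron of a transcript that begins farther upstream than the RefSeq start used here. Of the 4 genes, ME1 rose with IKE in both lines, PGD rose in CFPAC-1, and IDH1 and RPE were not called in either line. A match describes the letters of a window and not a bound site, and the windows of TKT, TALDO1, PGLS, RPIA and NNT held none of these letters.

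IDH1 encodes the cytosolic isocitrate dehydrogenase, which makes NADPH and 2-oxoglutarate. It is on the reverse strand of chromosome 2 (ENSG00000138413, 208236227 to 208266074), and IDH1-AS1 lies within it on the opposite strand. IDH1 had 41.37, 46.36, 43.45 and 39.18 FPKM in PANC-1 with IKE and 52.41 and 44.01 FPKM with DMSO. The groups overlapped (difference -0.17, 95% interval -0.36 to 0.01, limma adjusted p = 0.319). In CFPAC-1, IDH1 had 149.62 and 139.66 FPKM with IKE and 129.97 and 122.05 FPKM with DMSO. Both IKE libraries were above DMSO, and the difference of 0.20 did not pass (95% interval -0.01 to 0.41, limma adjusted p = 0.409).

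NNT encodes the transhydrogenase of the inner mitochondrial membrane, which uses the proton gradient to make NADPH from NADH. It lies on the forward strand of chromosome 5 (ENSG00000112992, 43602692 to 43707405), with the antisense gene NNT-AS1 over its start. The processed pseudogene RPL29P12 also overlaps NNT on the opposite strand. NNT had 33.32, 33.76, 32.01 and 32.95 FPKM in PANC-1 with IKE and 40.44 and 35.02 FPKM with DMSO. In CFPAC-1 it had 43.38 and 46.77 FPKM with IKE and 49.11 and 48.91 FPKM with DMSO. Each IKE library was below each DMSO library of its line, yet neither difference passed the test (-0.18, limma adjusted p = 0.186 in PANC-1, and -0.12, limma adjusted p = 0.573 in CFPAC-1).

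**Figure D2:**
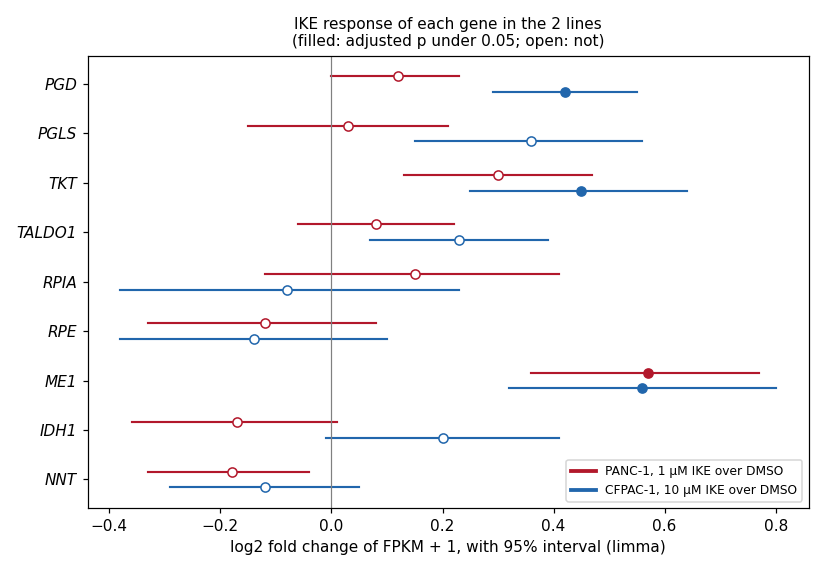
Log2 fold change of FPKM + 1 with IKE over DMSO (horizontal axis) for each gene (vertical axis), in PANC-1 (red, 4 against 2 libraries) and CFPAC-1 (blue, 2 against 2); bars are 95% intervals from limma, and filled points have an adjusted p under 0.05. ME1 lies at 0.57 and 0.56 in PANC-1 and CFPAC-1, while RPE and NNT lie below 0 in both.

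A gap between the libraries was commoner than a call. IKE libraries were all above DMSO for 3 members in PANC-1 (12.3% of all tested genes) and for 6 in CFPAC-1 (23.0% of all), and all below it for 2 members in PANC-1 (13.6% of all) and for 2 in CFPAC-1 (23.9% of all). The members above DMSO were PGD, TKT and ME1 in PANC-1, and PGD, PGLS, TKT, TALDO1, ME1 and IDH1 in CFPAC-1.

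Whether the lines responded differently was tested as the response of PANC-1 minus that of CFPAC-1. No member passed (0 of 9, where 0.336% of all tested genes did, limma), and 3 had an unadjusted p under 0.05, each with the smaller value in PANC-1. These were PGD (difference -0.30, 95% interval -0.48 to -0.13, adjusted p = 0.166), IDH1 (-0.37, 95% interval -0.65 to -0.09, adjusted p = 0.273) and PGLS (-0.33, 95% interval -0.60 to -0.05, adjusted p = 0.321). By rank, at least 1560 of the 13077 tested genes met the unadjusted threshold in this comparison, in either direction. For ME1 the difference was 0 (95% interval -0.31 to 0.32, adjusted p = 0.996), an interval that leaves room for responses unequal by up to 0.32 on the log2 scale. TKT lay between them, at -0.14 (95% interval -0.40 to 0.12, adjusted p = 0.67).

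The lines were also compared with each other under DMSO. In that comparison, 3 of 9 members were higher in PANC-1 than in CFPAC-1, where 43.4% of all tested genes were, and 3 were lower, where 35.2% were, so that 78.7% of all were called (limma, adjusted p under 0.05). Libraries of the lines did not overlap for any member, with 3 higher in PANC-1 (49.0% of all tested genes) and 6 lower (40.3% of all). These DMSO libraries are also those of the IKE comparisons. ME1 was the widest of these, at 18.8 ± 1.43 FPKM in PANC-1 and 3.24 ± 0.12 FPKM in CFPAC-1 (SD, n = 2 each; ratio of mean FPKM 5.79; log2 fold change 2.22, SE 0.11, limma adjusted p = 4.42e-09). TALDO1 (101 ± 8.80 against 66.4 ± 0.17 FPKM; 0.60, limma adjusted p = 1.15e-05) and RPE (54.5 ± 0.785 against 36.9 ± 7.67 FPKM; 0.57, limma adjusted p = 4.87e-04) were also higher in PANC-1. In the other direction, PGLS stood at 12.6 ± 0.156 FPKM in PANC-1 and 39.1 ± 2.45 FPKM in CFPAC-1 (log2 fold change -1.56, SE 0.09, limma adjusted p = 2.92e-08). IDH1 had 48.2 ± 5.94 FPKM in PANC-1 and 126 ± 5.60 FPKM in CFPAC-1 (-1.37, SE 0.10, limma adjusted p = 1.05e-07). NNT was lower in PANC-1 by a smaller step (37.7 ± 3.83 against 49.0 ± 0.141 FPKM; -0.37, limma adjusted p = 9.50e-04).

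PGD, TKT and RPIA did not pass between the lines. Their differences were -0.06 (95% interval -0.19 to 0.07, limma adjusted p = 0.394) for PGD, -0.10 (95% interval -0.29 to 0.10, adjusted p = 0.345) for TKT and -0.18 (95% interval -0.48 to 0.13, adjusted p = 0.254) for RPIA. Median-ratio scaling, which moved the median of all genes in this comparison to -0.01 where it had been 0.12, made PGD (-0.19, adjusted p = 0.0114) and TKT (-0.23, adjusted p = 0.0316) pass as lower in PANC-1. The 6 calls and their directions held in every alternative.

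**Figure D3:**
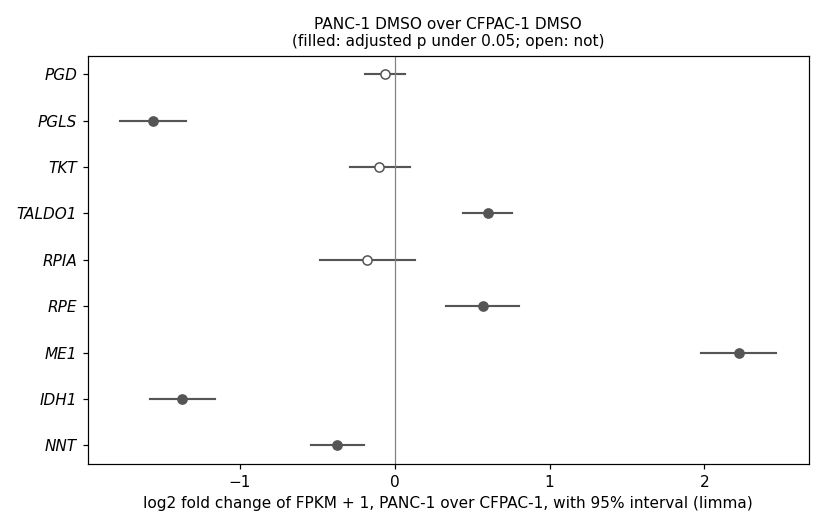
Log2 fold change of FPKM + 1 in PANC-1 DMSO over CFPAC-1 DMSO (horizontal axis) for each gene (vertical axis), with 95% intervals from limma and 2 libraries in each group; filled points have an adjusted p under 0.05. ME1 lies at 2.22, and PGLS and IDH1 lie at -1.56 and -1.37.

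The order of the levels differed between the lines. In PANC-1 with DMSO the means ran, from the highest, TKT, TALDO1, PGD, RPE, IDH1, NNT, ME1, PGLS and RPIA, and the same order held with IKE. In CFPAC-1 with DMSO they ran TKT, IDH1, PGD, TALDO1, NNT, PGLS, RPE, RPIA and ME1. With IKE in CFPAC-1, PGLS changed places with NNT. Neighbours in these orders did not overlap in their libraries, with the exception of PGLS and RPE in CFPAC-1 with DMSO.

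IDH1 took 7.73% to 8.51% of the sum in PANC-1 with IKE and 9.36% to 10.4% with DMSO, and 21.3% to 22.3% in CFPAC-1 with IKE and 22.3% to 23.7% with DMSO. ME1 took 4.67% to 5.89% in PANC-1 with IKE and 3.78% to 3.93% with DMSO, and 0.746% to 0.848% in CFPAC-1 with IKE and 0.577% to 0.607% with DMSO. The ratio of ME1 to IDH1, both cytosolic makers of NADPH, was 0.747, 0.566, 0.606 and 0.762 in the PANC-1 IKE libraries and 0.378 and 0.404 in the PANC-1 DMSO libraries. It was 0.038 and 0.035 in the CFPAC-1 IKE libraries and 0.0256 and 0.0259 in the CFPAC-1 DMSO libraries. In each line every IKE library had a higher ratio than every DMSO library. The ratio of PGD to PGLS, the oxidative arm's pair, was 5.25 to 6.07 in PANC-1 with IKE and 5.26 to 5.27 with DMSO, and 1.76 to 1.93 in CFPAC-1 with IKE and 1.65 to 1.88 with DMSO, so the groups overlapped within each line and the lines stood apart.

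**Figure D4:**
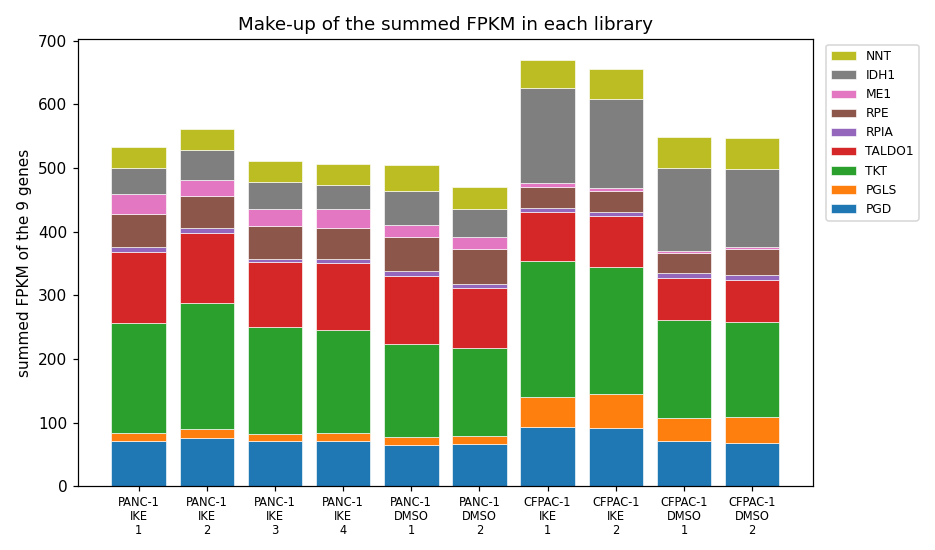
Summed FPKM of the 9 genes (vertical axis, from 0) in each of the 10 libraries (horizontal axis), with 1 colour per gene. CFPAC-1 with IKE has the tallest bars (669.5 and 655.3), and IDH1 takes 21.3% to 23.7% of the sum in CFPAC-1, while ME1 takes at most 5.89% of it in PANC-1 and at most 0.848% in CFPAC-1.

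Other genes of related chemistry were taken from lists. Of 10 further pentose phosphate genes, 6 were tested, and 0 rose and 0 fell with IKE in either line (limma, with 0 higher and 0 lower in both lines at an unadjusted p under 0.05). Their median log2 fold change was -0.08 in PANC-1 and -0.03 in CFPAC-1, against -0.01 and 0 over all tested genes. TKTL1, TKTL2, PRPS1L1 and RPEL1 did not exceed 0.17 FPKM in any library and were not tested. Between the lines, 2 of the 6 were higher and 3 lower in PANC-1, where 43.4% of all tested genes were higher and 35.2% lower. They were led by PRPS1, which makes the ribose donor of nucleotide synthesis and stood at 114 ± 11.1 FPKM in PANC-1 and 15.8 ± 0.771 FPKM in CFPAC-1 with DMSO (SD, n = 2 each; log2 fold change 2.77, limma adjusted p = 1.60e-09). RBKS, the ribokinase gene (-1.04, limma adjusted p = 1.03e-04), and PGM2, of pentose and hexose phosphate exchange (-0.46, limma adjusted p = 4.09e-04), were lower in PANC-1, and the sedoheptulose kinase gene SHPK was higher (0.33, limma adjusted p = 0.0126). The SHPK call was lost with median-ratio scaling (0.22, adjusted p = 0.0737), without CFPAC-1 DMSO replicate 1 (0.23, adjusted p = 0.115) and without PANC-1 DMSO replicate 1 (0.28, adjusted p = 0.0765).

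A second list of 11 genes was drawn up for NADP supply, and 10 were tested. Cofactor use was not measured, and a place on this list does not show that an enzyme makes NADPH. With IKE, 2 rose and 0 fell in PANC-1 (1.21% and 1.17% of all tested genes), and 1 rose and 0 fell in CFPAC-1 (0.864% and 0.459% of all; limma). At an unadjusted p under 0.05, 2 were higher and 1 lower in PANC-1, and 2 were higher and 2 lower in CFPAC-1. In either direction, at least 2121 of the 13077 tested genes met this threshold in PANC-1 and at least 1732 in CFPAC-1. The list's median was -0.04 in PANC-1 and 0.08 in CFPAC-1, against -0.01 and 0 over all tested genes. MTHFD2, a mitochondrial folate enzyme, had 161.62, 155.50, 139.39 and 161.69 FPKM in PANC-1 with IKE and 115.74 and 119.57 FPKM with DMSO (log2 fold change 0.39, limma adjusted p = 0.0189). In CFPAC-1 it had 79.06 and 74.23 FPKM with IKE and 27.60 and 30.00 FPKM with DMSO (1.38, limma adjusted p = 4.14e-06). Its response was smaller in PANC-1 than in CFPAC-1 by the test of the difference (-0.99, SE 0.11, limma adjusted p = 0.00318). ALDH1L2, which releases NADPH from mitochondrial folate, rose in PANC-1 to 1.83, 2.29, 1.92 and 1.85 FPKM with IKE, against 1.36 and 0.83 FPKM with DMSO (0.51, limma adjusted p = 0.0455), a call lost in each fit that left out 1 library (adjusted p from 0.0626 to 0.291). The ALDH1L2 call was also lost with a pseudocount of 0.1 (0.83, adjusted p = 0.124), no low-value filter (0.0657), IKE replicates 1 and 2 alone (0.117) or 3 and 4 alone (0.1), and the lines fitted apart (0.109). In CFPAC-1 it had 0.50 and 0.64 FPKM with IKE and 0.06 and 0.16 FPKM with DMSO (0.50, limma adjusted p = 0.11). Its ratio of mean FPKM was 5.18 in CFPAC-1 and 1.8 in PANC-1, although the log2(FPKM + 1) values were nearly equal. IDH2, the mitochondrial isocitrate dehydrogenase that makes NADPH, was not called with IKE (-0.29, limma adjusted p = 0.144 in PANC-1, and -0.31, limma adjusted p = 0.226 in CFPAC-1). Between the lines with DMSO, MTHFD2 (1.99, limma adjusted p = 9.05e-10), the mitochondrial malic enzyme gene ME2 (1.73, limma adjusted p = 4.42e-09) and ALDH1L2 (0.91, limma adjusted p = 6.76e-05) were higher in PANC-1, and IDH2 was lower (-0.50, limma adjusted p = 0.00134). The value of ALDH1L2, whose levels are near 1 FPKM and below, was 2.51 with a pseudocount of 0.1, and its ratio of mean FPKM was 9.95.

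Of 11 enzymes that spend NADPH, all tested, 4 rose and 0 fell with IKE in PANC-1 (1.21% and 1.17% of all tested genes), and 2 rose and 0 fell in CFPAC-1 (0.864% and 0.459% of all; limma). At an unadjusted p under 0.05, 6 were higher and 4 lower in PANC-1, and 5 were higher and 0 lower in CFPAC-1. By rank, at least 2121 of the 13077 tested genes met this threshold in PANC-1 and at least 1732 in CFPAC-1, in either direction. The list's median was 0.22 in PANC-1 and 0.19 in CFPAC-1, against -0.01 and 0 over all tested genes. TXNRD1, the cytosolic thioredoxin reductase, averaged 286 ± 30.4 FPKM in PANC-1 with IKE (n = 4) and 172 ± 0.325 FPKM with DMSO (n = 2; SD; log2 fold change 0.73, limma adjusted p = 0.00191), and 82.7 ± 3.75 FPKM in CFPAC-1 with IKE and 48.2 ± 1.56 FPKM with DMSO (SD, n = 2 each; 0.76, limma adjusted p = 0.00189). NQO1, the quinone reductase, rose in PANC-1 (0.39, limma adjusted p = 0.00738) and in CFPAC-1 (0.72, limma adjusted p = 2.16e-04). BLVRB, a biliverdin and flavin reductase, rose in PANC-1 (0.45, limma adjusted p = 0.00834) and was not called in CFPAC-1 (0.14, limma adjusted p = 0.525). GSR, the glutathione reductase, rose in PANC-1 (0.38, limma adjusted p = 0.0212) and was at 0.30 in CFPAC-1 (limma adjusted p = 0.122). The calls of NQO1, BLVRB, GSR and MTHFD2 in PANC-1 were each lost without PANC-1 DMSO replicate 1 and without DMSO replicate 2 (adjusted p from 0.0582 to 0.246). With PANC-1 IKE replicates 3 and 4 alone MTHFD2 was at an adjusted p of 0.0523. The GSR call was lost as well on leaving out PANC-1 IKE replicate 1 or 4 (0.0511 and 0.051 in adjusted p), with IKE replicates 1 and 2 alone (0.0519) and with the lines fitted apart (0.0552). The test of the difference between the lines called none of TXNRD1 (-0.04), NQO1 (-0.33), BLVRB (0.31) and GSR (0.08). With DMSO, TXNRD1 was higher in PANC-1 than in CFPAC-1 (1.81, limma adjusted p = 1.07e-08), while BLVRB (-1.49, limma adjusted p = 1.05e-08), GSR (-1.04, limma adjusted p = 3.17e-07) and the carbonyl reductase gene CBR1 (-1.10, limma adjusted p = 7.53e-07) were lower.

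**Figure D5:**
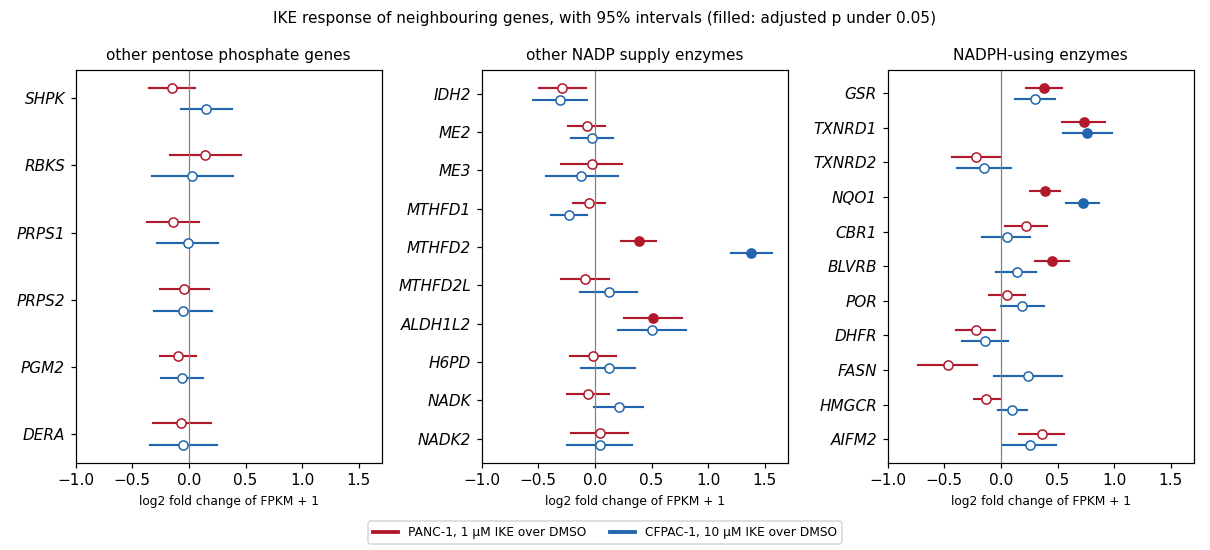
Log2 fold change of FPKM + 1 with IKE over DMSO (horizontal axes) for the tested genes of 3 lists (vertical axes), in PANC-1 (red) and CFPAC-1 (blue), with 95% intervals from limma; filled points have an adjusted p under 0.05. The pentose phosphate panel holds open points only, MTHFD2 lies at 0.39 in PANC-1 and 1.38 in CFPAC-1, and TXNRD1 lies at 0.73 and 0.76.

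Genes with the most similar pattern were found by the Euclidean distance between log2(FPKM + 1) profiles over the 10 libraries, each centred on its own mean. For ME1 the nearest were CARS1, the cysteinyl tRNA synthetase gene (distance 0.50), the microtubule-associated protein gene MAP1B (0.52) and the growth factor gene CSF1 (0.55), where the median distance of all genes from ME1 was 3.57. CARS1 stood at 73.1 ± 5.23 FPKM in PANC-1 with IKE (n = 4) and 48.8 ± 2.45 FPKM with DMSO (n = 2), and at 18.3 ± 0.148 FPKM in CFPAC-1 with IKE and 9.30 ± 0.113 FPKM with DMSO (SD, n = 2 each). PGD was nearest to the translation factor gene EIF4B (0.17), SLC41A3 (0.25) and TBC1D14 (0.25), against a median of 1.34. TKT was nearest to GPANK1 (0.29), BLTP3A (0.30) and PGD (0.30), against a median of 1.37, so that PGD was among the 3 nearest of all tested genes to TKT. From the lowest to the highest library, TKT itself spanned only 0.62 and PGD 0.50.

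PGLS was nearest to PPCDC (0.19), RAB20 (0.22) and ACSS2 (0.24), and IDH1 to CREB3L4 (0.21), TCEA2 (0.24) and ELFN2 (0.25). For TALDO1 they were TEN1-CDK3 (0.17), a readthrough gene of at most 1.19 FPKM, ARPC1A (0.17) and SRF (0.19). For RPE they were SHH (0.18), DNHD1 (0.19) and RPA3 (0.25). For NNT they were CMTR1 (0.13), a gene with no symbol (0.18) and TMEM106C (0.20). Of each 3, between 1 and 3 were found again under a pseudocount of 0.1, quantile normalization or median-ratio scaling, so these names depend on the scale.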

How the data were processed

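Total RNA of 10 libraries was sequenced. Per the labels' protocols it was depleted of rRNA, and the second cDNA strand was digested. Per the submitters' processing notes, StringTie 1.3.4, HISAT2 2.1.0, DESeq2, Bowtie2 2.2.8 and fastp 0.18.0 were used on the build GRCh38, with roles, annotation and strand setting not given in the sources used here. Deposited by the authors were FPKM values rounded to 2 decimals for 20289 Ensembl genes, of which 19705 matched a symbol. A further 9 columns are empty. Counts are not in the table, so counting error is unknown.

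The test covered 13077 genes that reached 1 FPKM in 2 or more libraries, all 9 members among them, on the log2(FPKM + 1) scale. A linear model over the 10 libraries (limma 3.58.1, R 4.3.3) had 1 mean per group and an intensity trend (6 residual and 5.1 prior degrees of freedom), and its two-sided p-values were Benjamini-Hochberg adjusted across these genes, with 0.05 as threshold. The labels speak of bioreplicates without naming separate cultures, and p-values then measure the spread between these samples, which may be technical. Named are all members, up to 4 called genes per list and comparison by smallest p, and the 3 genes nearest to each member called in any comparison. Members and lists were chosen with earlier results of these data known. Coordinates are from GENCODE 29, and promoter windows, matched by symbol for 9 of 9 genes, from RefSeq. Alternatives were other pseudocounts, filters and scalings, no trend, a replicate block, a fit per line, subsets of the PANC-1 IKE libraries and each library left out.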

Additional observations from a re-analysis of the deposited data

Results flagged for a closer look

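In PANC-1 with IKE, PGD was highest in replicate 2, at 75.14 FPKM, with the next library at 71.15 FPKM. This gap was 0.86 of the range of the 4 libraries, over the 95% critical value of Dixon's test. FPKM summed over all genes was also highest in replicate 2 (472665, against 443772, 449099 and 446801 in replicates 1, 3 and 4). The values compared here were not corrected for these totals. Without replicate 2 the IKE response of PGD in PANC-1 was 0.10 (limma adjusted p = 0.255). CBR1 was also highest in that replicate, at 21.07 FPKM against 17.92 FPKM in the next, a gap of 0.949 of the range. Of the 22 named genes looked at in this group, these 2 stood out, and chance gives such a gap in about 1 in 20 groups.

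The response of MTHFD2 to IKE differed between the lines, with a difference of -0.99 on the log2 scale for PANC-1 minus CFPAC-1 (limma adjusted p = 0.00318). SHPK had opposite signs in the lines and was called in neither (-0.15, limma adjusted p = 0.421 in PANC-1, and 0.15, limma adjusted p = 0.588 in CFPAC-1). All 4 IKE libraries of PANC-1 lay below DMSO (4.88, 4.97, 4.70 and 4.67 against 5.66 and 5.25 FPKM), as for 13.6% of all tested genes. Both of CFPAC-1 lay above it (4.53 and 4.91 against 3.79 and 4.51 FPKM), as for 23.0% of all. The difference of -0.31 did not pass limma's test (adjusted p = 0.397).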

How the results depend on the processing

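Members called with IKE numbered 1 in PANC-1, 2 with IKE replicates 1 and 2 alone, and 0 to 2 with single libraries left out. In CFPAC-1 they numbered 3, and 0 to 3 with single libraries left out. Among signs that turned, none belonged to a called result: with single libraries left out, RPE in CFPAC-1 ran from -0.35 to 0.07, PGLS from -0.02 to 0.07 and TALDO1 from -0.01 to 0.17 in PANC-1, and the differences between the lines from -0.19 to 0.22 for RPE, -0.17 to 0.04 for NNT and -0.09 to 0.09 for ME1. With PANC-1 IKE replicates 3 and 4 alone, PGLS was -0.04, RPIA -0.02 and the difference of ME1 -0.01. That difference was -0.1 with a pseudocount of 0.1 and -0.07 with quantile normalization. Pairing by replicate number was checked for numbers 1 and 2 only, where deviations hardly correlated between IKE and DMSO (0.0495 in PANC-1 and -0.00145 in CFPAC-1). This cannot show whether samples were paired otherwise. The replicate block changed no member's call, with 1 member called in PANC-1, while GSR (limma adjusted p = 0.0689) and ALDH1L2 (limma adjusted p = 0.14) lost theirs there. Numbers 3 and 4 occur in PANC-1 IKE alone, so under the block those libraries no longer inform the comparison. Over all genes, calls in PANC-1 numbered 311, 149 under the replicate block, 172 or 471 with IKE replicates 1 and 2 or 3 and 4 alone, 189 with the lines fitted apart, and 42 (without PANC-1 DMSO replicate 1) to 504 (without PANC-1 IKE replicate 2) with single libraries left out. In CFPAC-1 they numbered 173, 262 with quantile normalization, and 80 (without CFPAC-1 DMSO replicate 2) to 256 with single libraries left out. For the difference they numbered 44, 15 under the replicate block, 17 or 69 with those PANC-1 IKE subsets, and 13 (without CFPAC-1 DMSO replicate 2) to 62 with single libraries left out. The fit of each line alone gives no difference between lines. The causes were not tested. Depth is unknown, so limits for genes near 0 cannot be given.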
